A study of Mus musculus with 12 samples.

Results

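The Ly6 surface antigens of myeloid cells were followed in mouse MLL-AF9 leukemia cells through 5 genes, Ly6c1, Ly6c2, Ly6a, Ly6e and Ly6g, out of 55401 genes with a value. They were selected on their family and with the host differences of these same libraries in view, so their differences between hosts are given below as a description, without a test. Ly6 proteins are small, cysteine-rich molecules with a three-finger fold, held on the outer face of the cell membrane by a glycosylphosphatidylinositol (GPI) anchor. Antibodies to them are standard tools for sorting mouse blood cells: Ly6C, the product of Ly6c1 and Ly6c2, is bright on classical monocytes, Ly6G on neutrophils, and Sca-1, the product of Ly6a, on hematopoietic stem cells. Ly6e, also called Sca-2, is found on many cell types, and several genes of the family are known to respond to interferon.

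RNA-seq was available for 12 libraries, 4 biological replicates from each of 3 hosts. Bone marrow progenitors had been transduced with the MLL-AF9 fusion gene together with GFP and passed through many recipients in turn, at the end without irradiation. These leukemia cells were then given to female mice aged 8 to 12 weeks, and total RNA was taken from GFP+ cells of the bone marrow of moribund animals. The hosts were wild-type (WT) C57BL/6 J mice, C57BL/6J-Rag2em3Lutzy/J (Rag2-/-) mice, in which no mature T or B cells form, and NSG mice, which are without NK cells as well. All groups thus carry MLL-AF9 and GFP and descend from the same transplanted cells, so the replicates are recipient mice, as far as the labels tell, and not separate leukemias. Values are in TPM (transcripts scaled to a common total of 1000000), a measure of RNA per gene length. The libraries held about 16000000 to 42800000 read ends (2 per read pair), as recovered from the TPM, with 16000000 to 27100000 in WT, 17400000 to 42800000 in Rag2-/- and 19000000 to 33100000 in NSG libraries, and 3 read ends on a gene of 1 kb correspond to 0.25 to 0.647 TPM. In bulk RNA, fewer cells that express a gene and less RNA per cell cannot be told apart.

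The coding sequences of Ly6c1 and Ly6c2, each 393 bases long in GENCODE M21, are the same at 384 positions (97.7%), and they are shown here because reads from the 2 genes can be told apart only where they differ. Of the 9 differing bases, 6 lie in the first 120 bases, printed from the start codon with the differing bases in capitals (GRCm38).
Ly6c1: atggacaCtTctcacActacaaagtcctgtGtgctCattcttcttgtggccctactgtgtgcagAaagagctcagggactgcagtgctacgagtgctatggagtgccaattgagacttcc
Ly6c2: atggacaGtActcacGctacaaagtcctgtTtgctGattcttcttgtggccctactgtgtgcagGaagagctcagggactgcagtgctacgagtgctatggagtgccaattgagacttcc
Along the whole transcripts, 31.7% of the 50-base stretches of Ly6c1 and 32.6% of those of Ly6c2 occur in the other gene, and 15.3% and 15.8% of the 100-base stretches. The other members are more distant: the coding sequence of Ly6a is 81.8% the same as that of Ly6c1 and 83.1% the same as that of Ly6g, whereas Ly6e is at 49.8% or less with each of the other 4.

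Upstream of the genes the likeness runs differently. Promoters of Ly6c1, Ly6c2 and Ly6g, 3 of the 5 members, and of the neighbouring family gene Ly6a2 were taken from RefSeq (GRCm38.p6, 250 bases before and 50 after a start site). The first Ly6c1 and Ly6c2 promoters are the same in 62.3% of aligned columns, but those of Ly6c2 and Ly6a2 in 95.1% (290 of 305). All 3 lie on the minus strand, at chr15:75048788-75049087 for Ly6c1, chr15:75111922-75112221 for Ly6c2 and chr15:75135079-75135378 for Ly6a2. They are printed because Ly6c2 and Ly6a2 differ in level and in their host pattern, and capitals mark GAGGAAGT, a form of the element bound by PU.1 (Spi1), a master regulator of myeloid genes.
Ly6c1: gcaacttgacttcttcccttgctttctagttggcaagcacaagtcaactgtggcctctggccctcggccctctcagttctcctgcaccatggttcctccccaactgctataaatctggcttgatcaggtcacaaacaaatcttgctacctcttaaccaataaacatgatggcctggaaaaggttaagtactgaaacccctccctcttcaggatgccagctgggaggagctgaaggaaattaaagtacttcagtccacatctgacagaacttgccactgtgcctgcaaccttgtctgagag
Ly6c2: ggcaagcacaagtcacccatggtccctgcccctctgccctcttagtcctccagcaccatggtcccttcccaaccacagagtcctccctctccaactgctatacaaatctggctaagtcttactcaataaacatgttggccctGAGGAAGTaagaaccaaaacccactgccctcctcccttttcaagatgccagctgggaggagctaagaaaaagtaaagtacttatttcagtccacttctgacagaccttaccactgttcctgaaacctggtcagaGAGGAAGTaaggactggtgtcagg
Ly6a2: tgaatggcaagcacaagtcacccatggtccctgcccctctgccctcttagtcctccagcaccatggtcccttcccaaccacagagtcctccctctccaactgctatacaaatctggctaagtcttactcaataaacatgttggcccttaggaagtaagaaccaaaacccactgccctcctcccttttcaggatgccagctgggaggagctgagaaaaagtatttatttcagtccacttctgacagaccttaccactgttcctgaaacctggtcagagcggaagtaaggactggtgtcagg
The search covered both strands, and 3.20% of all 32851 promoters of this length hold GAGGAAGT. From the first start sites, Ly6c2 held it at positions -108 and 27 and Ly6g at -31. From the second start sites, it lay at -142 and -8 in Ly6c2, at -99 and 27 in Ly6g and at -127 in Ly6c1. No exact match fell in the Ly6a2 window. At the places of the Ly6c2 matches the printed Ly6a2 letters read taggaagt and gcggaagt, which both keep ggaagt. Neither TTCNNNGAA, the gamma interferon activation site, nor GAAANNGAA, the interferon-stimulated response element, was found in the promoters of these 4 genes, against 8.30% and 8.56% of all promoters. These are matches of letters only.

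The 5 genes lie within 204 kb on chromosome 15 (GRCm38), in the order Ly6e, Ly6a, Ly6c1, Ly6c2 and Ly6g, with only Ly6i between them among protein-coding genes. Ly6e (ENSMUSG00000022587, chr15:74955051-74959905) and Ly6g (ENSMUSG00000022582, chr15:75155240-75159126) are on the plus strand. Ly6a (ENSMUSG00000075602, chr15:74994877-74998031), Ly6c1 (ENSMUSG00000079018, chr15:75044018-75048830) and Ly6c2 (ENSMUSG00000022584, chr15:75108158-75111970) are on the minus strand. Their levels did not follow their closeness. Averaged over the 12 libraries, Ly6e was at 1557 TPM, Ly6c2 at 483, Ly6a at 31.6, Ly6c1 at 6.21 and Ly6g at 2.71. The order Ly6e, Ly6c2, Ly6a, Ly6c1 held in each of the 12 libraries. Ly6c1 and Ly6g could not be ranked, as Ly6c1 was above Ly6g in 8 of 12 libraries and below it in Rag2-/- replicates 1, 2 and 3 and NSG replicate 4. TPM was scaled to all annotated exons of a gene, 2740 bases for Ly6c2 but 822 in its main transcript, and scaling to the main transcripts instead gave 2583, 1609, 39.9, 12.3 and 2.72 in the same order of genes. The neighbours Ly6i (0 to 0.917 TPM), Ly6m (0.686 to 2.31) and BC025446 (0 to 0.105) were low in every library.

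**Figure D1:**
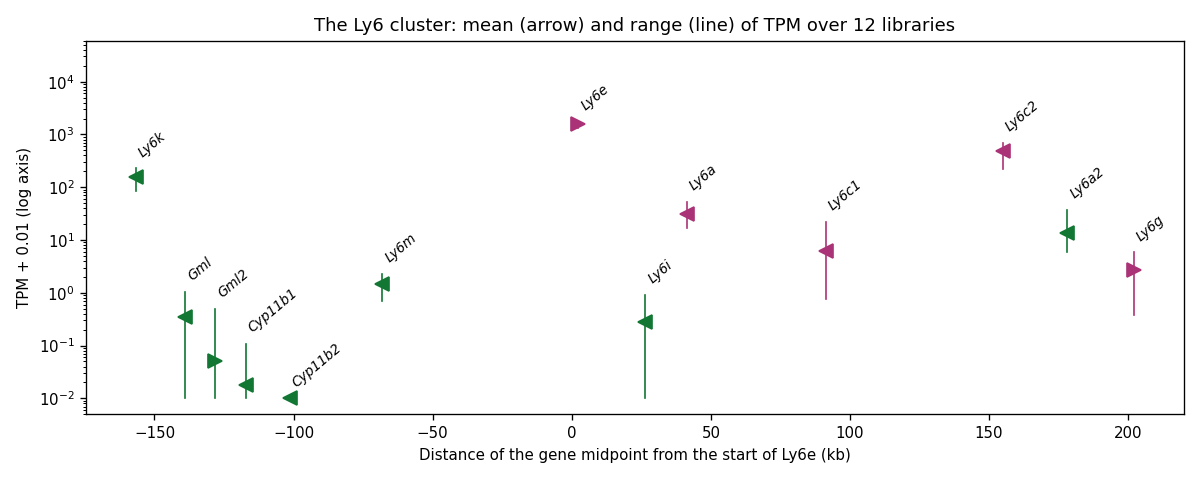
The Ly6 cluster by distance of each gene's midpoint from the start of Ly6e (kb) against TPM + 0.01 (log axis); arrowheads give the mean over 12 libraries and the strand, lines the range, with the 5 members in purple and other genes in green. Ly6e at 1557 TPM and Ly6c2 at 483 TPM are separated by Ly6a, Ly6c1 and the low Ly6i.

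Ly6c2, which supplied nearly all of the RNA of the monocyte antigen Ly6C, was lower in cells from Rag2-/- mice. It was at 633, 514, 642 and 614 TPM in WT replicates 1 to 4, at 223, 267, 356 and 482 in Rag2-/- and at 532, 685, 404 and 441 in NSG replicates 1 to 4. All 4 Rag2-/- libraries lay below all 4 WT libraries, with a mean of 332 ± 115 (SD, n = 4) against 601 ± 58.8, and Rag2-/- overlapped with NSG (516 ± 125). The log2 fold change of TPM + 1 was -0.91 (SE 0.22) against WT and -0.67 (SE 0.22) against NSG, and -0.24 (SE 0.22) for NSG against WT. Within the Rag2-/- group replicate 4 was the highest, and without it the value against WT was -1.11.

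Ly6c1, the near-copy of Ly6c2, was low and uneven among libraries. It was at 3.47, 2.48, 4.80 and 3.66 TPM in WT, 1.73, 0.749, 3.66 and 21.8 in Rag2-/-, and 14.1, 14.5, 1.90 and 1.72 in NSG replicates 1 to 4. Rag2-/- replicate 4 and NSG replicates 1 and 2 were thus well above the other 9 libraries, and the hosts overlapped in each comparison. These levels rest on 8 to 440 read ends, which come from pairs and so from fewer molecules. The log2 fold change against WT was 0.07 (SE 0.77) in Rag2-/- and 0.53 (SE 0.77) in NSG cells, and without Rag2-/- replicate 4 the first of these was -0.69.

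Set against Ly6c2, Ly6c1 was at 0.28% to 1.03% of its TPM in 9 libraries, and at 4.53% in Rag2-/- replicate 4, 2.64% in NSG replicate 1 and 2.12% in NSG replicate 2. The share was narrow in WT, 0.483% to 0.748%. How the counting assigned reads that fit both genes was not tested, so their separate levels are uncertain. Summed, the 2 genes were at 604 ± 59.6 TPM in WT, 339 ± 124 in Rag2-/- and 524 ± 131 in NSG (SD, n = 4).

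**Figure D2:**
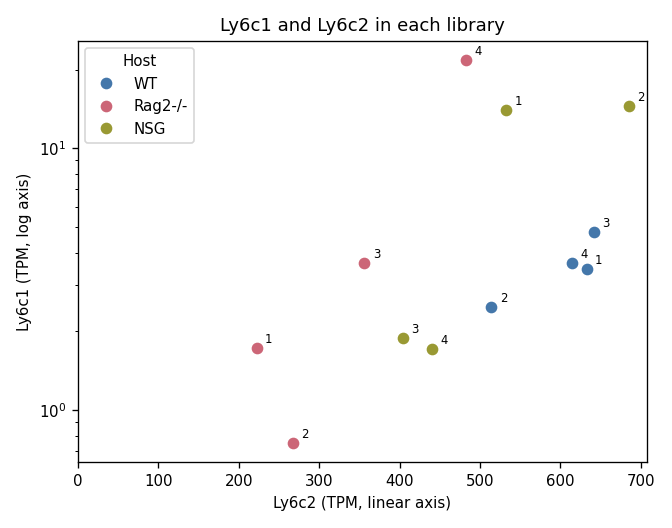
Ly6c1 (TPM, log axis) against Ly6c2 (TPM, linear axis) in each of the 12 libraries, coloured by host and numbered by replicate. Rag2-/- replicate 4 and NSG replicates 1 and 2 lie above 14 TPM of Ly6c1, all others below 5.

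Ly6a, which encodes the stem cell antigen Sca-1, was also lower in cells from Rag2-/- mice. Its values were 26.8, 50.3, 40.8 and 53.5 TPM in WT, 16.9, 20.1, 21.5 and 24.8 in Rag2-/-, and 27.0, 37.5, 23.5 and 36.7 in NSG replicates 1 to 4. The Rag2-/- libraries were all below the lowest WT library, replicate 1, and only NSG replicate 3 fell among them. The means were 42.9 ± 11.98 in WT, 20.8 ± 3.30 in Rag2-/- and 31.2 ± 7.01 in NSG cells (SD, n = 4). The log2 fold change was -0.97 (SE 0.21) for Rag2-/- against WT, -0.54 (SE 0.21) for Rag2-/- against NSG and -0.43 (SE 0.21) for NSG against WT.

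Ly6e was the most abundant member and had a similar level in the 3 hosts. It was at 1368, 1603, 1652 and 1760 TPM in WT, 1438, 1438, 1563 and 1773 in Rag2-/-, and 1593, 1756, 1316 and 1424 in NSG replicates 1 to 4. The ranges overlapped almost fully, and the log2 fold changes lay between -0.07 and 0.03, each with an SE of 0.10. With Ly6c2 lower, Ly6e made up 77.0% to 85.3% of the summed TPM of the 5 members in Rag2-/- libraries, from 67.3% to 73.8% in WT libraries and from 70.4% to 75.4% in NSG libraries. Ly6c2 made up 13.2% to 20.9%, 23.7% to 31.1% and 23.1% to 27.5% in the same order.

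Ly6g, which encodes the neutrophil antigen Ly6G, was close to the limit of detection. It was at 1.83, 2.10, 2.44 and 1.80 TPM in WT, 5.86, 5.0002, 4.77 and 1.41 in Rag2-/-, and 3.06, 1.07, 0.375 and 2.84 in NSG replicates 1 to 4, or 2 to 55 read ends. Rag2-/- replicates 1, 2 and 3 were the 3 highest of the 12 libraries, but replicate 4 was below every WT library. The log2 fold change was 0.69 (SE 0.38) against WT and 0.92 (SE 0.38) against NSG, and 1.03 and 1.26 without Rag2-/- replicate 4. The 2 read ends of NSG replicate 3 are fewer than the 3 taken here as the floor.

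**Figure D3:**
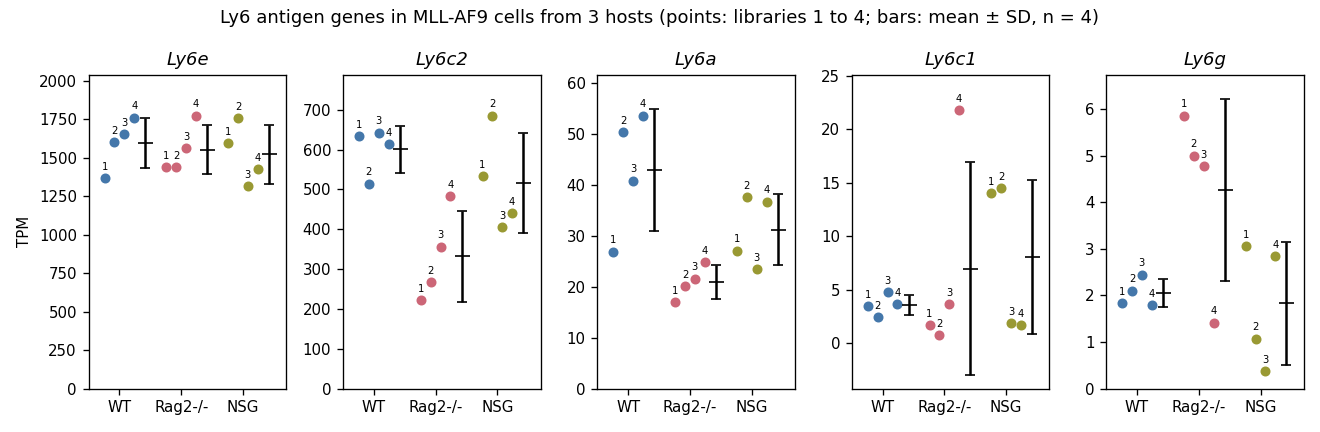
TPM of the 5 members by host; points are libraries numbered by replicate and bars the mean ± SD (n = 4). Ly6c2 and Ly6a are lower in all Rag2-/- libraries than in all WT libraries, while Ly6c1 and Ly6g vary most between libraries of one host.

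With the limits used for the whole table (adjusted p below 0.05 in limma and a log2 fold change beyond 0.5), 2 of the 5 members, Ly6c2 and Ly6a, lay past them as lower in Rag2-/- than in WT cells, as did 0.326% of the 15026 genes tested, and 0 members lay past them as higher, as did 1.14% of genes. With each library left out in turn, Ly6c2 lay past the limits in 4 and Ly6a in 6 of 12 fits. These 2 were also the members without overlap between Rag2-/- and WT libraries, as were 16.9% of all genes. Against NSG 0 of 5 lay past the limits (0.193% of genes were called higher and 0.02% lower) and 0 were without overlap (6.59% of genes). Between NSG and WT 0 of 5 lay past them (0% of genes called) and 0 were without overlap (4.59% of genes). As these contrasts were in view when the members were picked, nothing is read from these counts. Both comparisons of Rag2-/- cells share the same 4 libraries.

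Across the 12 libraries, which differ in host and in depth, log2(TPM + 1) of Ly6c1 and Ly6c2 had a Pearson r of 0.56, and of 0.88 once each host's mean was removed. For Ly6c2 and Ly6a, r was 0.76, and 0.37 with the host means removed. Ly6c1 and Ly6e had 0.71 and 0.78, and Ly6g had negative values with each of the other 4, down to -0.63 with Ly6c2. Among all genes tested, the 3 most like each member by Pearson r over the 12 libraries were Pdhx, Zfp422 and Hells for Ly6c1 (0.96 to 0.92), Lpar2, Ednra and Igfbp4 for Ly6c2 (0.91), Wdr77, Uqcc1 and Gm4535 for Ly6a (0.96 to 0.93), Lgals9, Cdk12 and Phf11d for Ly6e (0.95 to 0.92), and Sec16a, C5ar1 and Trav13n-4 for Ly6g (0.91 to 0.89). These are the largest values among all genes tested, over libraries in which host and depth vary for both genes of a pair alike.

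Other genes of the family, which share the three-finger fold, were not among the members and were tested. This list and the lists below were chosen with earlier results of these data known. Their p-values are thus not independent of those results. Of 46 listed genes 43 had a value, 19 were listed at 0 in every library, 16 were above 0 but under a mean of 1 TPM, and 8 were tested. In Rag2-/- against WT cells 2 of the 8 rose and 1 fell, beside 1.14% and 0.326% of all genes, with a median log2 fold change of 0.11 over the 8 against 0.02 over all genes.

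Ly6k, which in the testis binds the germ cell protein Tex101, fell in cells from Rag2-/- mice. It was at 180, 230, 181 and 210 TPM in WT, 126, 124, 85.3 and 125 in Rag2-/-, and 120, 127, 166 and 178 in NSG replicates 1 to 4. All Rag2-/- libraries were below all WT libraries, with a log2 fold change of -0.81 (SE 0.15, adjusted p = 0.0215 in limma). Against NSG the value was -0.36 (SE 0.15, adjusted p = 0.352), and all NSG libraries were below the WT libraries too (-0.45, SE 0.15, adjusted p = 0.446). The call of Ly6k was lost in limma on leaving out WT replicate 2 (adjusted p = 0.0768), WT replicate 4 (0.0527), Rag2-/- replicate 2 (0.054) or Rag2-/- replicate 3 (0.0629). A gene on the opposite strand, Gm17189, overlaps it and was at 0 to 0.486 TPM, and whether the counting used strand is not given in the sources used here.

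Ly6a2, annotated as a pseudogene in GENCODE M21 and lying between Ly6c2 and Ly6g, rose in cells from Rag2-/- mice. It was at 9.99, 5.96, 9.46 and 9.80 TPM in WT, 16.5, 17.5, 36.9 and 16.9 in Rag2-/-, and 8.79, 10.9, 11.95 and 11.2 in NSG replicates 1 to 4, from 24 to 162 read ends. The Rag2-/- libraries were above all others, with a log2 fold change against WT of 1.17 (SE 0.24, adjusted p = 0.026 in limma). Against NSG it came to 0.89 (SE 0.24), with an adjusted p of 0.138. Its call was lost in limma when WT replicate 2 (adjusted p = 0.0898), WT replicate 3 (0.06) or Rag2-/- replicate 2 (0.0606) was left out. Its promoter is the one printed above that is 95.1% the same as that of Ly6c2, whose values in the same libraries were lower than in WT. Of the 50-base stretches of the Ly6a2 transcript, 0.441% occur in Ly6c2 and 2.94% in Ly6a.

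Cd177, a neutrophil surface antigen, rose in Rag2-/- against WT cells. It was at 143, 84.9, 117 and 118 TPM in WT, 199, 328, 334 and 147 in Rag2-/-, and 97.7, 104, 132 and 116 in NSG replicates 1 to 4. Against WT the log2 fold change came to 1.06 (SE 0.24), with an adjusted p of 0.0393 in limma. The value against NSG, 1.08 (SE 0.24), had an adjusted p of 0.0835, and the Rag2-/- libraries lay above all others. The call against WT was lost in limma without any 1 WT library (adjusted p from 0.056 to 0.126), without Rag2-/- replicate 1, 2 or 3 (0.0535, 0.105 and 0.128) and without NSG replicate 2 (0.0515), whereas without Rag2-/- replicate 4 it was also called against NSG.

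The other 5 tested genes did not pass in any comparison. Plaur, the urokinase receptor, was at 65.0 to 100 TPM, Ly6g5b at 1.41 to 6.74, Lynx1, a modulator of nicotinic receptors, at 2.21 to 4.11, Tex101 at 0.617 to 3.03, and Ly6m at 0.686 to 2.31. Their log2 fold changes ranged from -0.26 to 0.50. No family gene was called against NSG or between NSG and WT, with 3 and 1 of the 8 at an unadjusted p under 0.05 in limma. CD59 genes, which guard cells from complement, were under the filter (Cd59a at 0.113 to 1.11 TPM, Cd59b at 0 to 1.68), and Gpihbp1, Psca, Ly6h, Ly6f and Ly6l were among those listed at 0.

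**Figure D4:**
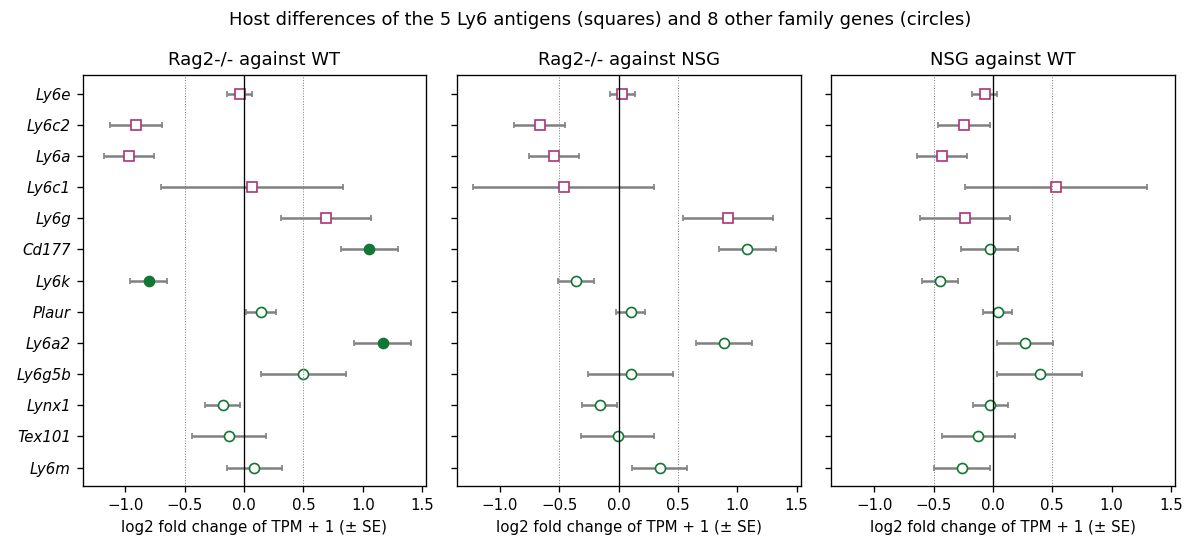
Log2 fold change of TPM + 1 (± SE from limma) in the 3 comparisons for the 5 members (squares, not tested) and 8 other family genes (circles, filled where called). Ly6c2, Ly6a and Ly6k lie left of zero and Cd177 and Ly6a2 right of it in cells from Rag2-/- against WT mice.

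Ly6 proteins reach the surface through the GPI anchoring machinery, and of its 29 listed genes 27 were tested and 0 called in limma in any comparison, with 6, 3 and 4 of them at an unadjusted p under 0.05 in Rag2-/- against WT, Rag2-/- against NSG and NSG against WT. The median log2 fold change was 0.02 in Rag2-/- against WT cells, the same as over all genes. The most abundant were Pigt, Pigs and Gpaa1, subunits of the transamidase that attaches the anchor. Pigt was at 151 to 166 TPM in WT and 175 to 195 in Rag2-/- libraries (log2 fold change 0.20, SE 0.05, adjusted p = 0.0567 in limma).

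Genes of the cell types that Ly6 antigens mark did not move as one. Of 17 tested classical monocyte genes besides the Ly6 genes, 2 rose in Rag2-/- against WT cells, beside 1.14% of all genes, with a median log2 fold change of 0.23: Clec4a1 (1.56, SE 0.31, adjusted p = 0.0242 in limma) and Vcan (0.58, SE 0.13, adjusted p = 0.035). Leaving out WT replicate 1, WT replicate 2, Rag2-/- replicate 2 or Rag2-/- replicate 3 ended both calls, with adjusted p-values of 0.0577 to 0.107 in limma, and Vcan was also lost when WT replicate 3, WT replicate 4 or Rag2-/- replicate 1 was left out (0.0597 to 0.0677). Vcan was called against NSG too (0.73, SE 0.13, adjusted p = 0.0462), and in 10 of the 12 fits with a library left out it was not, with adjusted p up to 0.152. Ctss, with 0.47 (SE 0.09, adjusted p = 0.023), stayed under the fold limit. Chil3 and Lyz2, singled out after their values were seen, were the most abundant genes of this list. They had log2 fold changes of 1.46 (SE 0.45, adjusted p = 0.0957) and 0.42 (SE 0.13, adjusted p = 0.101 in limma) against WT. A positive value against WT was found for 11 of these 17 genes, beside 8186 of all 15026 genes, and a negative value for 6. In 5 genes all Rag2-/- libraries lay above all WT libraries and in 2 below, where 16.9% of all genes were without overlap. The 2 below, named after their values were seen, were Ms4a3 (762 to 793 TPM in Rag2-/- and 836 to 923 in WT) and F13a1 (697.5 to 749.2 and 749.4 to 878.1). Ms4a3 is also on the primary granule list and is counted there again.

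Of 8 tested nonclassical monocyte genes and 14 stem and progenitor genes, 0 were called in limma in any comparison, with 3 and 5 at an unadjusted p under 0.05 in Rag2-/- against WT, 3 and 2 in Rag2-/- against NSG and 0 in NSG against WT. Their medians against WT were 0.07 and 0.01. Spn, Pou2f2 and Eno3 were the most abundant of the first list, and the log2 fold change of Spn (CD43) was -0.09 (SE 0.07). In the second, Spi1, which encodes PU.1, was at 548 to 582 TPM in WT and 596 to 654 in Rag2-/- libraries (0.16, SE 0.04, adjusted p = 0.0751 in limma), and Myb and Hoxa9, which sustain MLL-AF9 cells, had 0.02 (SE 0.10) and 0.10 (SE 0.06).

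Late neutrophil genes, the company of Ly6G in normal blood, rose in number: 14 of 18 against WT and 9 of 18 against NSG, beside 1.14% and 0.193% of all genes. Their medians were 1.93 and 1.70. In NSG against WT 0 were called, and 4 had an unadjusted p under 0.05 in limma. S100a9 reached 474 ± 234 TPM in Rag2-/- cells against 24.9 ± 4.44 in WT cells (log2 fold change 4.00, SE 0.40, adjusted p = 0.00242 in limma) and Ngp 208 ± 94.4 against 16.4 ± 3.98 (3.46, SE 0.33, adjusted p = 0.00242). Camp, Ltf, Mmp8, Mmp9, Retnlg, S100a8 and Fpr1 were also called in both comparisons, and Cxcr2, Ifitm6, Itgb2l, Lcn2 and Wfdc21 against WT. With each library left out the count against WT ranged from 9 (without WT replicate 2 or Rag2-/- replicate 2) to 14, and against NSG from 4 (without Rag2-/- replicate 1, 2 or 3 or NSG replicate 2) to 13 (without Rag2-/- replicate 4). Of 8 primary granule genes Mpo fell (-2.13, SE 0.39, adjusted p = 0.0189), a call that limma lost when replicate 2 or 3 of either host was left out (adjusted p from 0.0511 to 0.0648). Of the 8 genes 7 had a negative value against WT, with a median log2 fold change of -0.27, and 5 had an unadjusted p under 0.05 in limma. In 6 (Mpo, Prtn3, Nkg7, Ms4a3, Cebpa and Gfi1) all Rag2-/- libraries lay below all WT libraries, where 16.9% of all genes were without overlap. Of these, Cebpa and Gfi1 encode transcription factors, and Ms4a3 is also on the classical monocyte list. The most abundant of the list overlapped: Elane (9241 to 11160 TPM in Rag2-/- and 10020 to 11320 in WT) and Ctsg (5378 to 6647 and 5618 to 6240). Against NSG all 8 were negative, with 0 called and 0 without overlap.

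The summed level of the late neutrophil genes was 3590, 3740, 4149 and 2287 TPM in Rag2-/- replicates 1 to 4, from 1316 to 1685 among WT libraries and from 1675 to 1843 among NSG libraries. Replicate 4, with the lowest sum, had the lowest Ly6g and Cd177 and the highest Ly6c2, Ly6c1, Ly6a and Ly6e of the group. Ly6g stayed at 1.41 to 5.86 TPM where S100a9 reached 148 to 701 TPM. The part of neutrophil RNA, in or among the sorted cells, in the Ly6 values was not tested.

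**Figure D5:**
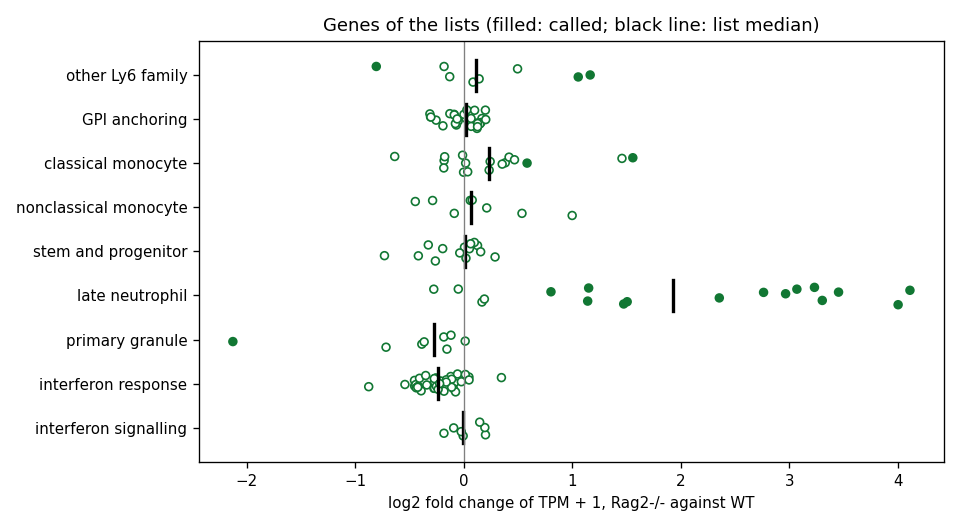
Log2 fold change of TPM + 1 in Rag2-/- against WT cells for genes of 9 lists; each circle is a gene, filled where called, and black lines are list medians. Late neutrophil genes lie furthest right with a median of 1.93, and the GPI anchoring genes centre on 0.02.

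Interferon response genes are of interest beside Ly6a, Ly6c and Ly6e, which interferon is known to raise. Of 40 tested 0 were called in limma in any comparison, with 9, 7 and 0 at an unadjusted p under 0.05 in Rag2-/- against WT, Rag2-/- against NSG and NSG against WT. A negative value against WT was found for 36 of the 40, while 8186 of all 15026 genes had a positive one. The median log2 fold change was -0.23, against 0.02 over all genes. Ifitm3, Bst2 and Oas1a, the most abundant, had log2 fold changes of -0.27 (SE 0.19), -0.45 (SE 0.15) and -0.26 (SE 0.09). The summed level was 3140 to 3845 TPM in WT, 2523, 3227, 2706 and 3581 in Rag2-/- replicates 1 to 4 and between 3110 and 4188 in NSG libraries. Of 7 interferon receptor and kinase genes 0 were called in limma, with 3, 1 and 0 at an unadjusted p under 0.05 in the same order, and Ifngr1 was at 581 to 771 TPM, Ifnar2 at 112 to 132 and Jak1 at 103 to 131.

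Other cell types were checked through their markers. Of 13 T and NK cell markers 0 reached a mean of 1 TPM, and Cd3e and Trac were listed at 0. The 13 markers summed to 0.366 to 1.49 TPM in WT, 2.17 to 5.84 in Rag2-/- and 0.409 to 2.69 in NSG libraries, so that the Rag2-/- sums lay above the WT sums. B and plasma cell markers summed to 367 to 564 TPM, nearly all of it Ighm and Xbp1, with Ms4a1 listed at 0. Among the 5 tested Igkc fell in Rag2-/- against WT cells (0.745 to 18.0 TPM in WT and 0 to 0.295 in Rag2-/-, adjusted p = 0.0348 in limma), and leaving out WT replicate 1, WT replicate 3, WT replicate 4 or any 1 Rag2-/- library ended the call (adjusted p from 0.0577 to 0.111). In NSG libraries Igkc was at 0 to 0.676 TPM, also below all WT libraries, where 4.59% of all genes were without overlap. Its log2 fold change for NSG against WT was -2.655 (SE 0.60, adjusted p = 0.342 in limma). Macrophage markers, mostly Adgre1 and Vcam1, summed to 92.0 to 101 TPM in WT, 104 to 119 in Rag2-/- and 57.1 to 114 in NSG libraries, so that the Rag2-/- sums lay above the WT sums. Of the 7 tested, 6 had a positive log2 fold change against WT (median 0.52) and 7 against NSG (median 0.81). Hosts parted fully, in either direction, in 16.9% of the 15026 genes against WT and in 6.59% against NSG. For the 7 macrophage markers, every Rag2-/- library exceeded every WT library in 3 and every NSG library in 4. Among these C1qc rose against WT (1.12 ± 0.717 TPM in WT and 4.07 ± 1.37 in Rag2-/-, adjusted p = 0.0251), and any 1 of these left out ended the call in limma: WT replicates 1, 2 and 4 and Rag2-/- replicates 1, 2 and 3 (adjusted p from 0.0534 to 0.0911). Erythroid markers summed to 3.47 to 4.55 TPM in WT, 6.25 to 12.9 in Rag2-/- and 3.05 to 12.1 in NSG libraries, so that the Rag2-/- sums lay above the WT sums, and 0 of the 2 tested were called. Endothelial and stromal markers summed to 142 to 157 TPM in WT, 114 to 167 in Rag2-/- and 92.6 to 162 in NSG libraries, nearly all of it Pecam1 (89.1 to 164 TPM), which leukocytes also express. Of 9 tested leukemia genes Cd33 rose against WT (0.59, SE 0.12, adjusted p = 0.0237), and leaving out replicate 2 or 3 of either host ended the call in limma (adjusted p from 0.0638 to 0.0889). The part of these cells in the Ly6 values was not tested.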

How the data were processed

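RNA-seq of 12 libraries was used, 4 per host. According to the methods, the authors aligned paired reads to mm10 with HISAT2 on Galaxy, took raw gene counts and calculated TPM from them, and TPM is the deposited unit. The counting tool, annotation and strand setting are not given in the sources used here. Every column totals 1000000 TPM. Of the 55401 genes, 55141 have a symbol in GENCODE M21 and 27734 are at 0 throughout. TPM times exon length came out at whole multiples of 1 read end, within 0.1, in 98.8% to 99.0% of genes up to 1000 read ends, which gave the depths.

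One limma model (version 3.58.1, R 4.3.3, empirical Bayes with a trend) covered all 12 libraries. It was fitted to log2(TPM + 1), and 15026 genes whose mean reached 1 TPM entered it. Benjamini-Hochberg adjustment was done within each comparison. A gene was called where its adjusted p was below 0.05 and its log2 fold change beyond 0.5, as in the methods. Fold changes understate those of low genes because of the pseudocount of 1. The floor of 3 read ends covers counting error only, and the SDs and SEs cover the spread between libraries. The fit was tested on simulated data.

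The members and lists were chosen with earlier results of these data known. Named genes were the members, tested family genes, called list genes or else the 3 most abundant of a list, neighbours on the chromosome, and the 3 genes most like each member. Alternatives were another pseudocount, filter, scaling or variance model, a replicate block, 8 libraries alone, no fold limit, Ly6c1 and Ly6c2 summed, and each library left out. Voom on the recovered read ends was added after seeing the data. Python 3.11.15, numpy 2.4.6, pandas 2.3.3 and matplotlib 3.10.9 were used besides.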

Additional observations from a re-analysis of the deposited data

Results flagged for a closer look

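In 5 of 39 sets of 4 libraries (13 Ly6 family genes in 3 hosts), 1 library stood apart from the other 3, with a gap to its neighbour, as a share of the whole range, above Dixon's 95% critical value for 4 values. Chance gives about 1 in 20 such sets. Ly6c1 was at 21.8 TPM in Rag2-/- replicate 4 against 0.749 to 3.66 in the other Rag2-/- libraries, a gap of 0.862 of the range. Ly6a2 was at 36.9 TPM in Rag2-/- replicate 3 against 16.5 to 17.5 (0.949), and at 5.96 TPM in WT replicate 2 against 9.46 to 9.99 (0.867). Ly6k was at 85.3 TPM in Rag2-/- replicate 3 against 124 to 126 (0.954). Lynx1 was at 2.21 TPM in Rag2-/- replicate 4 against 3.00 to 3.14 (0.845).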

How the results depend on the processing

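The log2 fold changes of the 5 members moved by less than the spread between replicates under each alternative. For Rag2-/- against WT, Ly6c2 stayed between -1.11 and -0.74 and Ly6a between -1.18 and -0.85 with each library left out, while Ly6c1 was at -0.69 when Rag2-/- replicate 4 was left out and at 0.55 when Rag2-/- replicate 2 was. In other settings Ly6c2 lay past the limits in 6 of 10 and Ly6a in 7 of 9.

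Counts of calls depended more on the setting, and the cause was not tested. Over all genes, those higher in Rag2-/- than WT cells numbered 172, and 91 with all genes above 0 or 309 with no fold limit. Those lower numbered 49, and 23, 111, 116 (8 libraries alone) and 98 (voom). Those higher than in NSG numbered 29, and 5 (all genes above 0), 15 (no trend), 9 (median-ratio scaling), 13 (pseudocount of 0.1), 16 (quantile), 4 (8 libraries alone) and 47 (voom). Those lower numbered 3, and 1 (pseudocount of 0.1) and 12 (voom). NSG against WT gave 0, and 2 (all genes above 0) or 1 (voom) higher.

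Of the list genes around Ly6, 16 were higher and 1 lower than in WT, and 10 higher with at least 1 TPM in every library, with 2 lower in that setting and under median-ratio scaling, 8 libraries alone and voom. Against NSG 10 were higher, and 4 (all genes above 0), 6 (at least 1 TPM in every library) and 4 (8 libraries alone), with 1 lower under voom. Of the other family genes 2 were higher than in WT, and 0 with all genes above 0 and 1 with no trend; the 1 lower was at 0 with all genes above 0, and voom called 1, Cd177, higher than in NSG.

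The replicate block left 5 genes higher and 0 lower than in NSG, 5 list genes higher than in NSG, 2 list genes lower than in WT and 1 family gene, Ly6a2, higher than in WT, and gave 127 and 38 genes against WT. The labels do not tell whether the numbers pair the libraries. Deviations of same-numbered libraries correlated at -0.09 to 0.03, and 0 of 12 libraries correlated best with its own number in both other hosts at once. With so few libraries per host, these values cannot decide whether those of the same number share a small effect.

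With each library left out, counts higher and lower than in WT ranged over 41 to 246 and 6 to 81, than in NSG over 4 to 76 and 0 to 15, and for NSG against WT over 0 to 1 each. List genes ranged over 9 to 17 and 0 to 4 against WT and 4 to 15 and 0 to 2 against NSG, and family genes over 0 to 2 and 0 to 1 against WT and 0 to 1 higher than in NSG. Depth limits Ly6g and Ly6c1, at 2 to 55 and 8 to 440 read ends.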

Other observations

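Between Ly6k and Ly6g the annotation also holds noncoding genes and pseudogenes, 5 of which were tested, chosen after their values were seen. Gm39556, a long noncoding RNA upstream of Ly6e, was at 30.4 to 74.1 TPM, above Ly6a in mean level on the TPM scale, and at 40.4 ± 10.7 TPM in WT, 57.3 ± 12.7 in Rag2-/- and 45.4 ± 11.6 in NSG cells (SD, n = 4), with a log2 fold change of 0.50 (SE 0.22, adjusted p = 0.208 in limma) for Rag2-/- against WT. Gm5960, a pseudogene between Ly6c1 and Ly6c2, was at 6.42 to 20.6 TPM with 0.00 (SE 0.29, adjusted p = 0.998), so that it was more abundant than Ly6c1 in mean level. Gm29126, Gm8000 and Gm6610 were at 0 to 7.28 TPM and were not called in any comparison. Reads shared with near-identical copies may be split among such pseudogenes.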
